A study of Saccharomyces cerevisiae with 17 samples.

Results

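In budding yeast that lacked Ume6, 66 genes with no entry for a motif in the deposited abundance table stood at least 4 times above wild type. They were chosen among 6411 genes without a motif entry, of 6648 in that table. A member had a log2 abundance of at least 2 in the ume6 deletion and a difference of at least 2 from wild type on the log2 scale. Of 92 genes past both thresholds, 26 were left out by name, among them heat-shock, seripauperin, hexose transporter and sporulation-specific families. The motif is not named in the table. The values that chose the genes were the wild type column and the ume6 column of the abundance table, so the difference between these 2 columns is a description throughout and supports nothing. Among genes with a value in both columns and a name not left out, the thresholds took 66 of 5801 without a motif entry, or 1.14%, and 37 of 213 with one, or 17.4%. Just inside the threshold on the difference lay RNA170 at 2.01, YGL182C at 2.03 and YBL100W-B at 2.06, and just outside it HXK1, MSF1 and YPL261C, each at 1.99. On the threshold for the log2 level in ume6, SRL4 at 2.13, YGL182C at 2.16 and YGR139W at 2.65 were the lowest inside, and ATP8 at 1.79, YIL025C at 1.68 and YLR311C at 1.60 the nearest outside.

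Ume6 is a DNA-binding protein that holds early meiotic genes and some metabolic genes silent in dividing cells. It binds the URS1 element in their promoters and brings the histone deacetylase complex of Rpd3 and the nucleosome remodeler Isw2 to them.

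RNA was measured in 10 groups of strains of the W303 background, grown to an OD600 between 0.4 and 0.6, depleted of ribosomal RNA and sequenced with the strand kept. The groups were wild type, the single deletions ume6, isw2, rpd3 and rrp6, the isw2 rpd3 double deletion, the wild type, ume6 and rrp6 strains with Chd1-Ume6, and ume6 with a catalytically dead Chd1-Ume6. Chd1-Ume6 joins the nucleosome-sliding enzyme Chd1 to the DNA-binding part of Ume6. Rrp6 is a subunit of the nuclear exosome, which degrades RNA. The double deletion was the only strain described as prototrophic, so that difference and the loss of Rpd3 cannot be told apart in comparisons with the isw2 strain. The labels name 17 libraries, and 15 columns of FPKM were used, a level scaled by transcript length and library size, with 8 columns in the abundance table and 7 in a workbook. The wild type column has the digits of a mean made by the authors. The isw2 column has those of a single library and no isolate number, and the other labelled isw2 library was not analysed here. The groups ume6, ume6 with Chd1-Ume6 and wild type with Chd1-Ume6 have a library in each table with no isolate number. The labels do not say that isolates were separate cultures, so p-values measure only the spread between these libraries, which may be technical. Depth is unknown, because the columns hold no counts.

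The targeted genes followed the labels. UME6 was at 0.0536 FPKM in the ume6 library of the abundance table and had no value in that of the workbook. RPD3 was at 0.0479 in rpd3 and 0.110 in the double deletion, ISW2 at 0.00613 in isw2 and 0.0818 in the double deletion, and RRP6 at 0.125 to 1.69 in the rrp6 libraries that had a value. CHD1 ran from 276 to 1608 FPKM where a fusion was labelled and from 22.4 to 39.1 elsewhere. URA3 also went with the fusion, from 216 to 1213 where it was labelled and from 58.5 to 114 elsewhere. It was at 1213 with the dead fusion and at 545 and 761 with the active form in ume6. The part of URA3 in comparisons that involve a fusion was not tested. INO1, an inositol synthesis gene with a URS1 element, ran from 827 to 3476 in the 5 libraries without native Ume6 and from 13.9 to 89.9 in those with native Ume6 and Rpd3. The mating-type markers were those of a cells in all 15 columns, with the a-specific receptor STE2 between 104 and 295 and the alpha-specific receptor STE3 between 0.0439 and 7.08. Libraries of the same group correlated across genes with r from 0.945 to 0.973. Between 5 and 16 members lay at least 2-fold apart within such a pair, the fewest for ume6 and the most for wild type with Chd1-Ume6. For ume6 these were 5 members, beside 234 of 6424 genes. For wild type with Chd1-Ume6 they were 16 of 64 members, beside 634 of 6244 genes. In that pair r was 0.80 over the members and 0.945 over all genes. Over the members r was 0.97 in ume6 with Chd1-Ume6, 0.87 in rrp6 and 0.85 in rrp6 with Chd1-Ume6.

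Promoters were read from the R64 genome of strain S288C, which is not the W303 background, and 56 of the 66 members matched its annotation by locus tag. The 10 others were RUF21, YGR226C, YGL182C, YIR044C, YGR139W, YDR278C, YDR015C, YNL285W, YJR037W and RNA170. The core of URS1, GGCGGC on either strand, was in 9 of 56 windows from 250 bases before to 50 after the coding start, or 16.1%. It was in 3.56% of such windows of all genes without a motif entry, in 71.4% of the 35 matched motif genes that passed the same thresholds, and in 5.09% of all genes. The longer GGCGGCTA, each copy of which holds the core, was in 3 members (5.36%), PRX1, YNL155W and MPC54, against 0.312% of genes without a motif entry. The following stretches are shown because they hold the core, or the repeated Yap1 letters, upstream of members without a motif entry. They run from 250 to 81 bases before the coding start, 5′ to 3′ on the strand of the gene, and lie at chrII:101237-101406 (minus strand), chrXV:667260-667429 (minus strand), chrII:80812-80981 (minus strand), chrIV:228921-229090 (plus strand), chrII:597113-597282 (plus strand) and chrXI:304864-305033 (plus strand). Capitals mark GGCGGC and TTACTAA or their reverse complements.
PRX1: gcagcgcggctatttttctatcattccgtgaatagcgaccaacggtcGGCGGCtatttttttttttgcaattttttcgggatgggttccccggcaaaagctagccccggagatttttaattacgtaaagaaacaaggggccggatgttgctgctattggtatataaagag
MPC54: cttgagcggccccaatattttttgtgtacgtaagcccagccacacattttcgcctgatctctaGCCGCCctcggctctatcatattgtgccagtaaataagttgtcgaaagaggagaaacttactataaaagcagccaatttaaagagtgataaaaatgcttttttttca
ATG8: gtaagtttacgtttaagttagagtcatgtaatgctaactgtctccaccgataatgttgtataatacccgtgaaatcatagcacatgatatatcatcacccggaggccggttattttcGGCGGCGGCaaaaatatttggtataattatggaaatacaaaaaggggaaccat
STF1: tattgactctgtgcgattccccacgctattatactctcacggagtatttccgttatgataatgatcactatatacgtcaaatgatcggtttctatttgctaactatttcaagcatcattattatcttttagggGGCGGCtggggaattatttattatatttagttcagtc
YBR184W: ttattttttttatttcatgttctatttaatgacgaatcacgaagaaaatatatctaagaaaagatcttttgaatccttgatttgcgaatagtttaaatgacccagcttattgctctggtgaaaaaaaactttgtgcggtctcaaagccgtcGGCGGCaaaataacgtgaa
YKL071W: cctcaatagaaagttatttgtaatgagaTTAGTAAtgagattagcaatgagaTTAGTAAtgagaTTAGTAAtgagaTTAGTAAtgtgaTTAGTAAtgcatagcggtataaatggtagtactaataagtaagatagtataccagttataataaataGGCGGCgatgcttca

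PRX1 holds the core 203 bases before the coding start and MPC54 holds it 187 bases before, in reverse orientation. ATG8 holds 2 overlapping copies, whose first bases lie at 133 and 130 before the start, while STF1 and YBR184W hold 1 copy each, at 117 and 99 before it. YKL071W holds the core at 95 bases before the start and 5 copies of the Yap1 site TTACTAA in reverse orientation, whose first bases lie 222, 198, 186, 174 and 162 bases before it. Yap1 is the activator of the oxidative stress response. Further members that hold the core are ALD2, 250 bases before the start, and GPH1 and YNL155W inside the coding sequence. With a window of 500 bases before the start, chosen after seeing the data, 14 of 56 members (25%) and 7.22% of genes without a motif entry held the core.

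The Yap1 site was in 7 members, or 12.5% against 7.53% of the genes without a motif entry. Those were SPO11, USV1, MEF2, ULI1, GPH1, YNL134C and YKL071W. The stress element AGGGG, the letters bound by Msn2 and Msn4, was in 18 of 56 members, or 32.1% against 21.7%. These matches describe letters and not bound sites. In gene order, 7 of 56 members (12.5%) lay next to a gene with a motif entry, against 5.88% of all genes without a motif entry. In 3 members (5.36% against 1.44%) the promoter was shared with a divergent motif gene, namely PRX1 with KIP1, TPO2 with CBF2 and BSC4 with ALP1. No matched member overlapped an annotated gene on the opposite strand (0 of 56), where 1.46% of the genes without a motif entry did, or under 1 gene in 56. The 10 unmatched members, YDR015C among them, were not looked up, so overlap with a neighbouring gene is unknown for them. By systematic name, 14 members formed 7 pairs of consecutive names, AMA1 with YGR226C, HAL1 with ICL2, HUL4 with YJR037W, MPC54 with GAC1, TPO2 with YGR139W, YCR099C with YCR100C, and YDR018C with GCV1. Whether the counting used strand is not given, so reads of AMA1 and YGR226C, or of HUL4 and YJR037W, cannot be told apart if these genes overlap. YCR099C and YCR100C overlap on the same strand, from base 301271 to 301299 of chrIII, so reads there cannot be told apart.

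**Figure D1:**
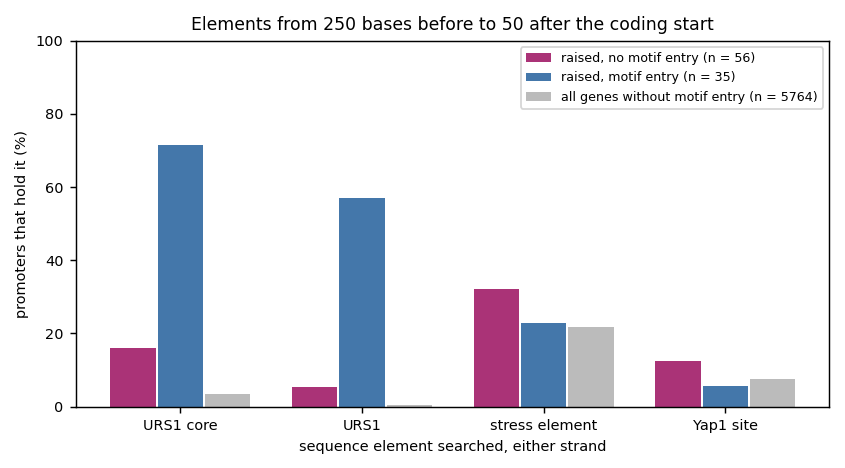
Share of promoter windows (%, vertical axis) that hold the URS1 core, the longer URS1, the stress element or the Yap1 site, for 56 members, 35 motif genes past the same thresholds and 5764 genes without a motif entry. The URS1 core reached 16.1% of members, between 3.56% of genes without a motif entry and 71.4% of the motif genes.

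In each of the 5 libraries without native Ume6 the median member stood above its level in all 10 other columns. On the log2(FPKM + 1) scale the median of the members was 2.94 in wild type, 3.06 in isw2, 3.34 and 3.64 in the libraries of wild type with Chd1-Ume6, and 3.54 and 3.74 in rrp6. It was 4.73 with the dead fusion, 5.21 and 5.27 in ume6 with Chd1-Ume6, and 5.52 and 5.70 in ume6 itself. In rpd3 it was 3.70, in the double deletion 3.84, and in rrp6 with Chd1-Ume6 3.84 and 4.52. The 2.94 of wild type and the 5.52 of ume6 came from the 2 columns that chose the members, so the choice set them apart. The lowest median without native Ume6, 4.73, and the highest with it, 4.52, came from other columns. Over all genes with a value the same median moved only between 4.89 and 5.12. These are bulk samples, in which fewer cells of a kind and less RNA per cell cannot be told apart.

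**Figure D2:**
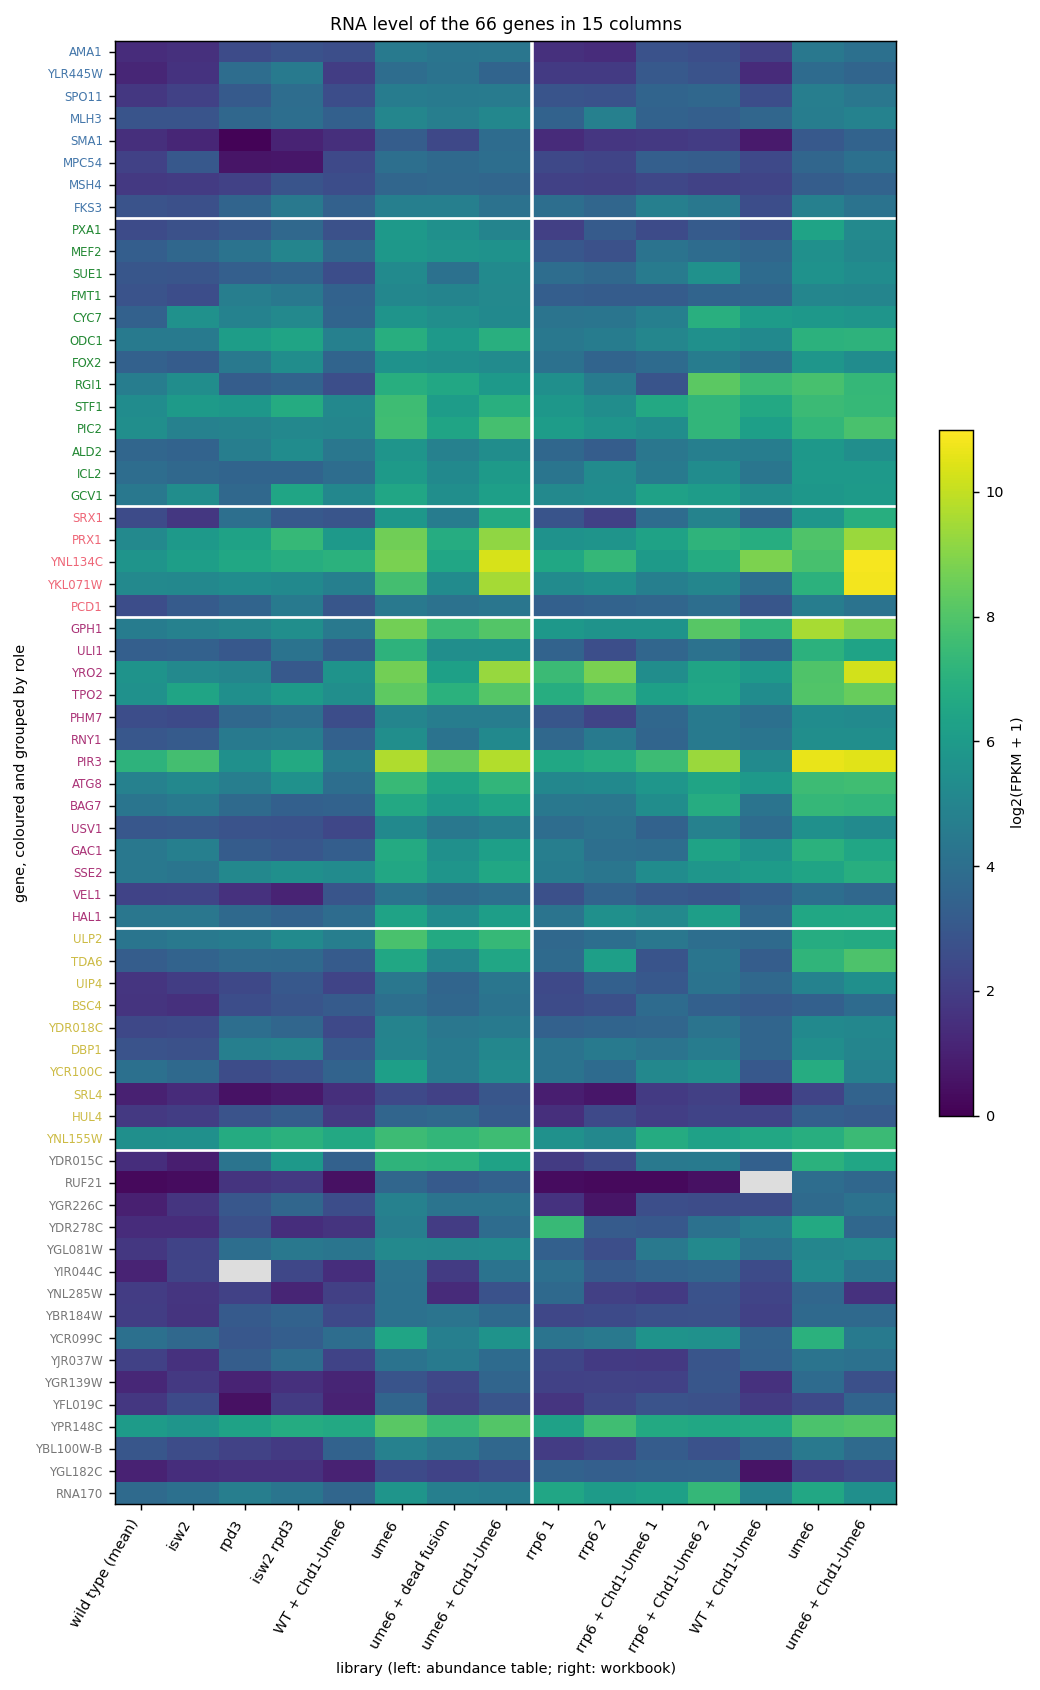
Level of each of the 66 members, as log2(FPKM + 1), in the 8 columns of the abundance table and the 7 of the workbook, with genes grouped and coloured by role and grey for a missing value. The columns of ume6, the dead fusion and ume6 with Chd1-Ume6 have the highest member medians, 4.73 to 5.70. The wild type and ume6 columns of the abundance table chose the members.

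Cells with the fusion and without native Ume6 gave the test that the choice of members did not use. The ume6 strain with Chd1-Ume6 was set against the wild type strain with Chd1-Ume6, 2 libraries each. Both sides carried the fusion and differed in native UME6, and the level of the fusion differed too. CHD1 was at 836 and 1075 FPKM in the ume6 strain and at 505 and 449 in the wild type strain. The part of the fusion's level was not tested and cannot be told apart from the loss of native Ume6 here. limma was fitted to the 13 columns that the choice did not use, over 6244 genes, and 64 members could be fitted. All 64 also passed the minimum of 1 FPKM in at least 2 columns with native Ume6, so none entered the fit only through the libraries where it was high. Of the 64 members, 41 were higher at an adjusted p under 0.05 and 0 were lower, where 6.18% of all genes fitted were called higher. The median difference was 1.72 on the log2 scale, against 0.01 over all genes, and 57 members had an unadjusted p under 0.05, as did 25.8% of all genes. Of the 35 motif genes past the same thresholds, 27 were higher with a median of 1.85. In both tables, 60 of 64 members were higher without native Ume6, and 45 were at least 2-fold higher in both, against 437 of 6244 genes. The 4 exceptions to the 60 were RGI1, CYC7, YDR278C and YNL285W. The share of all genes higher in both tables was not counted. In the fit the difference was above 0 in 63 of 64 members and in 50.9% of all genes.

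The number of calls rested on having both libraries of each group. Without any 1 of the 4 libraries compared, 1 of the 41 members was still called, YKL071W, and without any 1 of the 9 other libraries between 40 and 46 members were called. Quantile normalization left 27. The fit had 3 residual degrees of freedom, and its spread came from the 4 groups with 2 libraries, so a group with 1 library was assumed to vary like them.

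**Figure D3:**
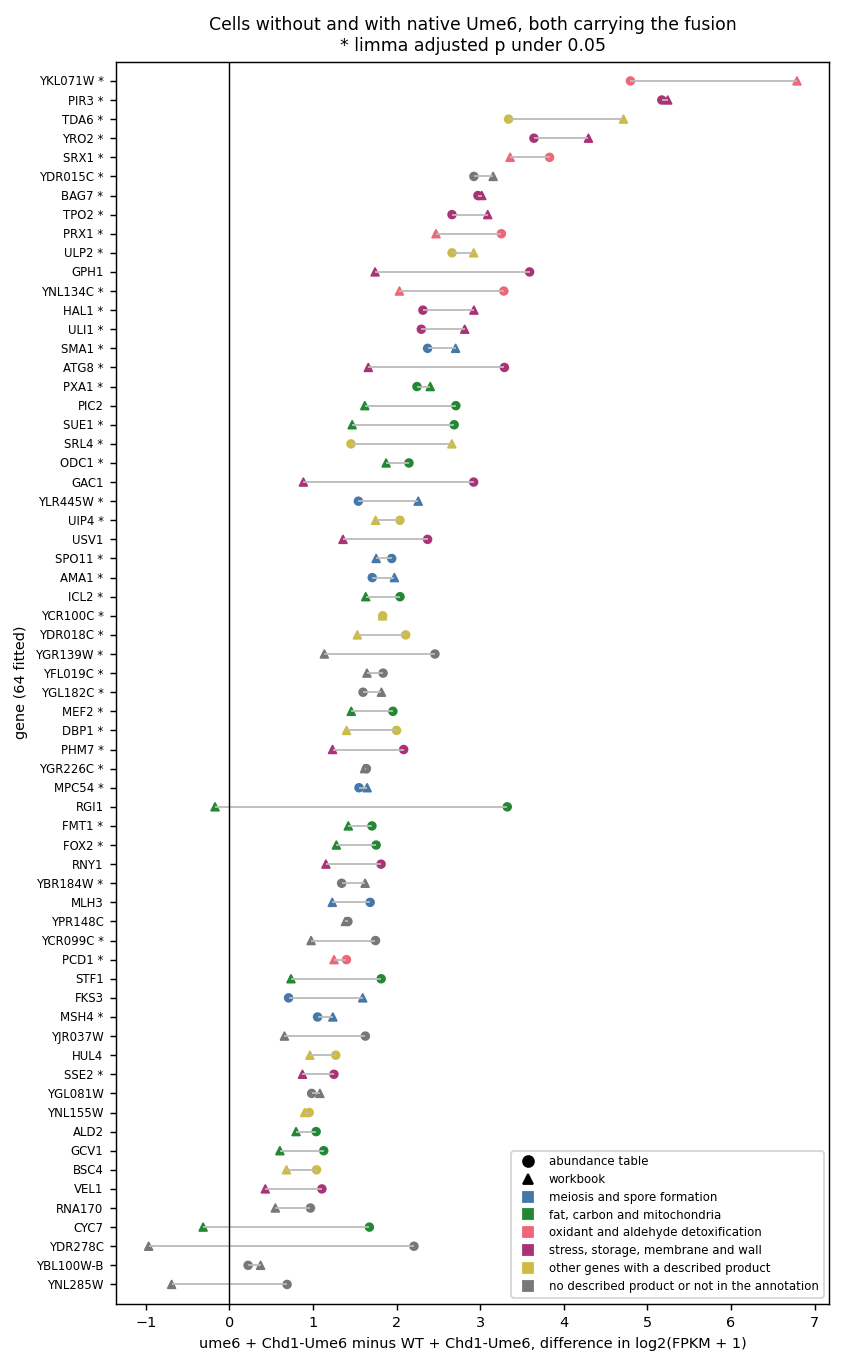
Difference in log2(FPKM + 1) between ume6 with Chd1-Ume6 and wild type with Chd1-Ume6 for each of 64 members, with circles for the abundance table, triangles for the workbook, colours for roles and a star for an adjusted p under 0.05. Both symbols lie to the right of 0 in 60 of 64 members, and YKL071W and PIR3 lie farthest right, with fitted differences of 5.79 and 5.21.

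The ume6 library of the workbook, the other measurement of the plain deletion, was set against the 2 libraries of wild type with Chd1-Ume6 and against the 2 rrp6 libraries. Loss of Ume6 cannot be told apart from absence of the fusion in the first comparison. It cannot be told apart from presence of Rrp6 in the second. In the first comparison 17 of 64 members were higher, where 1.89% of all genes were, with a median difference of 1.75. In the second 28 of 64 were higher, where 2.58% of all genes were, with a median of 1.78. Both comparisons use the same ume6 library, and the first shares its wild type libraries with the test above, so they are not independent of each other. Against wild type with Chd1-Ume6 the highest members were PIR3 at 5.35 ± 0.68, YCR100C at 3.81 ± 0.31 and YCR099C at 3.71 ± 0.34 (log2 difference, SE), all past the test. The lowest were YNL134C at -0.74 ± 0.55, BSC4 at 0.29 ± 0.35 and YNL155W at 0.30 ± 0.35, none of which passed. Against rrp6 the highest were YDR015C at 4.85 ± 0.31, ULI1 at 4.01 ± 0.42 and PIR3 at 3.94 ± 0.63, again all past the test. The lowest there were YGL182C at -1.27 ± 0.30, YRO2 at -0.18 ± 0.60 and RNA170 at 0.29 ± 0.47, and none of them passed. The count of 17 fell to 0 without the workbook library of wild type with Chd1-Ume6, to 8 without its other library or either library of ume6 with Chd1-Ume6, and to 11 without either library of rrp6 with Chd1-Ume6. It was 8 after quantile normalization and 45 with all 15 columns, a fit that includes the ume6 column used to choose the genes. The count of 28 fell to 15 without rrp6 library 2. In the workbook, the lower of ume6 and ume6 with Chd1-Ume6 lay above all 5 libraries with native Ume6 in 46 of 64 members, where 8.23% of all genes did so. In the abundance table, the lower of ume6 with Chd1-Ume6 and the dead fusion lay above isw2 and wild type with Chd1-Ume6 in 60 of 64, where 22.3% of all genes did. Both held in 46 of 64 members and in 5.57% of all genes. The 4 members without separation in the abundance table were CYC7, YFL019C, YNL285W and YNL134C.

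Of the 8 members that act in meiosis and spore formation, 6 were called higher in ume6 with Chd1-Ume6. SPO11, which encodes the enzyme that makes meiotic DNA breaks, was at 23.3 and 24.9 FPKM in the ume6 libraries, 22.0 with the dead fusion, and 22.5 and 19.3 in ume6 with Chd1-Ume6. In the 10 columns with native Ume6 it ran from 2.44 to 14.3 with a median of 6.06, so the groups did not overlap, and its highest value was in the double deletion. Here and below, the ranges include the wild type and ume6 columns that chose the members. Groups said not to overlap were also apart without these 2 columns. For SPO11 the difference between the ume6 and wild type strains with Chd1-Ume6 was 1.85 ± 0.22 (log2, SE, limma adjusted p = 0.0063). AMA1, the meiosis-specific activator of the anaphase-promoting complex, was at 22.0 and 20.0 in ume6, 18.5 with the dead fusion, and 19.2 and 15.8 with the active form. Its columns with native Ume6 ran from 1.61 to 5.93, again with no overlap. YLR445W, known as GMC2 and part of the synaptonemal complex, was at 14.5 and 13.3 in ume6, 17.5 with the dead fusion and 10.6 and 11.1 with the active form. It ran from 1.29 to 22.4 with native Ume6, and the double deletion at 22.4 and rpd3 at 14.1 overlapped the libraries without Ume6. The differences of AMA1 and YLR445W were 1.84 ± 0.24 and 1.90 ± 0.27 (SE, limma adjusted p = 0.0073 and 0.011).

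The meiotic recombination gene MSH4 and the spore genes MPC54, of the meiotic spindle pole, and SMA1, of the prospore membrane, completed the 6. MSH4 was at 11.5 and 10.3 FPKM in ume6 with Chd1-Ume6 and at 5.02 and 3.79 in wild type with it. MPC54 was at 15 and 15.8 in the first group and at 4.45 and 4.35 in the other. SMA1 was at 13.6 and 10.4 in the first and at 1.82 and 0.756 in the other, a difference of 2.54 ± 0.28 (SE, limma adjusted p = 0.0049). For all 3 genes both libraries without native Ume6 lay above both with it. MLH3, a mismatch-repair protein that acts in crossing over, and FKS3, related to glucan synthases and needed for the spore wall, did not pass the test, with differences of 1.46 and 1.15.

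Of the 13 members of fat and carbon use or of mitochondria, 7 were called higher, with a median difference of 1.58 for the group. PXA1, a subunit of the peroxisomal fatty acid importer, was at 61.4 and 82.1 FPKM in ume6, 44.3 with the dead fusion, and 30.6 and 34.9 with the active form. In the columns with native Ume6 it ran from 3.19 to 12 with a median of 5.73, so the groups were apart. Its difference was 2.32 ± 0.39 (SE, limma adjusted p = 0.016). FOX2, an enzyme of peroxisomal beta-oxidation, was at 38.7 and 40.2 in ume6 with Chd1-Ume6 and at 10.8 and 16 in wild type with it. In the double deletion FOX2 stood at 40.9, inside the range without Ume6. The other 5 called were ODC1, a mitochondrial carrier of oxodicarboxylates, MEF2, a mitochondrial elongation factor, FMT1, the formyltransferase of the mitochondrial initiator tRNA, SUE1, which acts in the breakdown of unstable cytochrome c, and ICL2, the methylisocitrate lyase. Their differences ran from 1.56 for FMT1 to 2.08 for SUE1.

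The 6 fat, carbon and mitochondrial members that did not pass were PIC2, a mitochondrial copper and phosphate carrier, RGI1, a protein of respiratory energy metabolism, STF1, which regulates the ATP synthase, the aldehyde dehydrogenase ALD2, GCV1 of the glycine cleavage system, and CYC7, the second isoform of cytochrome c. RGI1 and CYC7 varied widely with native Ume6. RGI1 ran from 5.19 to 303 FPKM and CYC7 from 9.65 to 121 in those 10 columns, each highest in library 2 of rrp6 with Chd1-Ume6. Both ranges spanned all 5 libraries without Ume6, which lay between 61.0 and 225 for RGI1 and between 35.9 and 56.5 for CYC7.

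All 5 members that detoxify oxidants and aldehydes were called higher, with a median difference of 2.86. YKL071W, known as OSI1 and an aldehyde reductase, was at 209 and 133 FPKM in ume6, 38.5 with the dead fusion, and 738 and 1800 in ume6 with Chd1-Ume6. With native Ume6 it ran from 15.3 to 45.2 with a median of 34.5, a range that held the dead fusion. Its difference between the ume6 and wild type strains with Chd1-Ume6 was 5.79 ± 0.43 (SE, limma adjusted p = 0.0026), the largest among the members. YNL134C, another aldehyde reductase, was at 437 and 219 in ume6, 90.0 with the dead fusion, and 1277 and 1871 with the active form. Native Ume6 columns ran from 50.4 to 457, highest in the workbook library of wild type with Chd1-Ume6, so only the 2 libraries with the active fusion in ume6 lay above all of them. Its difference was 2.66 ± 0.41 (SE, limma adjusted p = 0.015).

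PRX1, the mitochondrial peroxiredoxin, was at 391 and 247 FPKM in ume6, 112 with the dead fusion, and 585 and 642 with the active form. SRX1, the sulfiredoxin that restores oxidized peroxiredoxins, was at 54.8 and 54.5 in ume6, 23.9 with the dead fusion, and 104 and 118 with the active form. Native Ume6 columns ran from 35.6 to 162 for PRX1 and from 2.40 to 29.0 for SRX1, and in both genes the dead fusion alone fell inside that range. The differences were 2.86 ± 0.33 and 3.59 ± 0.39 (SE, limma adjusted p = 0.0053 and 0.0045). PCD1, a diphosphatase that clears oxidized nucleotides and coenzyme A, was at 19.1 and 17.1 in ume6 with Chd1-Ume6 and at 6.62 and 6.59 in wild type with it.

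**Figure D4:**
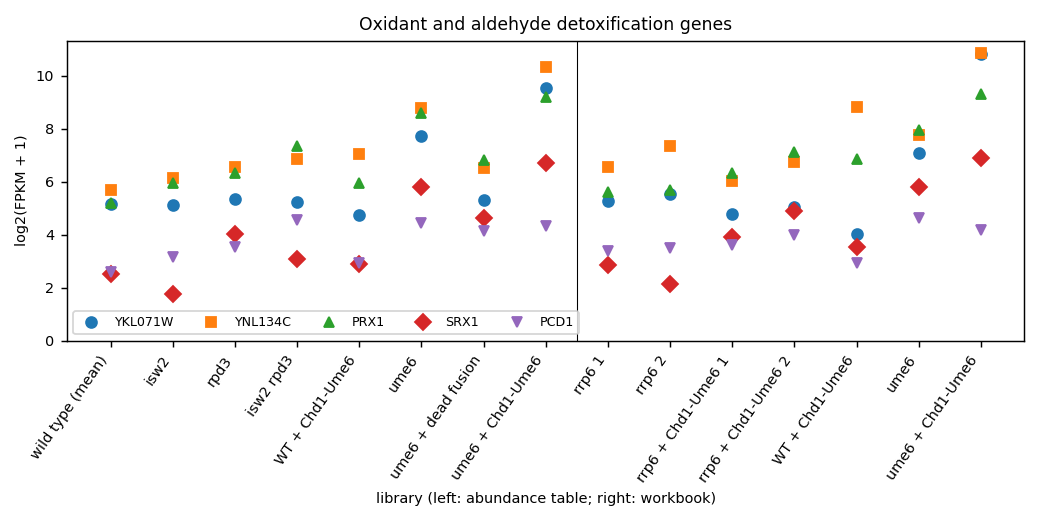
Level of the 5 oxidant and aldehyde detoxification members, as log2(FPKM + 1), in the 8 columns of the abundance table and the 7 of the workbook, 1 point for each column. YKL071W and YNL134C are highest in the 2 libraries of ume6 with Chd1-Ume6, at 738 to 1871 FPKM, and the dead fusion lies within the range of the columns with native Ume6 in each of the 5 genes.

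Of the 14 members of stress, storage, membrane or cell wall, 9 were called higher, with a median difference of 2.52 for the group. PIR3, a cell wall glycoprotein, was at 826 and 1576 FPKM in ume6, 325 with the dead fusion, and 843 and 1446 with the active form, and had the highest level of the members in the column that chose them. It was at 22.4 and 37.2 in wild type with Chd1-Ume6, and library 2 of rrp6 with Chd1-Ume6, at 642, overlapped the range without Ume6. Its difference was 5.21 ± 0.51 (SE, limma adjusted p = 0.0036). YRO2, a plasma membrane protein induced by weak acid, was at 398 and 247 in ume6, 74.4 with the dead fusion, and 628 and 1229 with the active form. It ran from 7.5 to 435 with native Ume6, lowest in the double deletion and highest in rrp6 library 2, and the ranges overlapped. The difference for YRO2 was 3.97 ± 0.49 (SE, limma adjusted p = 0.0064).

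BAG7, the polyamine exporter TPO2, the halotolerance gene HAL1, ULI1 of the unfolded protein response and the autophagy protein ATG8 also passed. Their differences were 3.0 ± 0.42, 2.88 ± 0.30, 2.62 ± 0.48, 2.55 ± 0.35 and 2.47 ± 0.40 in that order (SE, limma adjusted p from 0.0039 to 0.022). ULI1 was at 137 and 134 FPKM in ume6, 42.1 with the dead fusion, 44.1 and 81.3 with the active form, and between 5.19 and 17.0 in the columns with native Ume6, with no overlap. ATG8 was at 151 and 195 in ume6 with Chd1-Ume6 and at 14.5 and 60.9 in wild type with it. PHM7, of phosphate regulation, and SSE2, an Hsp110 chaperone, completed the 9. GPH1, the glycogen phosphorylase, did not pass at 2.67 ± 0.77 (SE, limma adjusted p = 0.079). GPH1 was at 264 and 488 in ume6 with Chd1-Ume6 and at 21.0 and 145 in wild type with it, so the 2 wild type libraries were themselves far apart. GAC1, which directs phosphatase to glycogen synthase, the transcription factor USV1, the vacuolar ribonuclease RNY1 and VEL1, a gene induced by zinc depletion, had differences from 0.77 to 1.90 and did not pass.

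Of the 10 members grouped as other genes with a described product, 7 were called higher. That group includes TDA6, although its function is unknown. TDA6 was at 92.2 and 145 FPKM in ume6, 31.2 with the dead fusion, and 90.3 and 244 with the active form. It ran from 6.35 to 72.5 with native Ume6. Its difference was 4.03 ± 0.78 (SE, limma adjusted p = 0.027), and rrp6 library 2 at 72.5 lay above the dead fusion. ULP2, a SUMO protease, was at 225 and 110 in ume6, 101 with the dead fusion, and 165 and 105 with the active form. With native Ume6 it ran from 12.2 to 37.0, apart from all 5. Its difference was 2.79 ± 0.24 (SE, limma adjusted p = 0.0026). SRL4, which acts on nucleotide pools, UIP4 of the nuclear envelope, YCR100C or EMA35, YDR018C or MLG1, a lysolipid acyltransferase, and the DEAD-box helicase DBP1 were called with differences from 1.70 to 2.06. HUL4, related to ubiquitin ligases, YNL155W or CUZ1, which binds Cdc48 and the proteasome, and BSC4, a gene that arose from noncoding DNA, had differences from 0.86 to 1.12 and did not pass.

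Of the 16 members with no described product or no place in the annotation, 14 were fitted and 7 were called higher. YDR015C was at 142 and 129 FPKM in ume6, 134 with the dead fusion, and 79.2 and 91.2 with the active form. With native Ume6 it ran from 0.896 in isw2 to 59.1 in the double deletion, and the groups did not overlap. YDR015C has no place in the annotation, so whether it shares reads with a neighbouring gene is unknown. Its difference was 3.04 ± 0.25 (SE, limma adjusted p = 0.0026). The other 6 called were YGR139W, YFL019C, YGL182C, YGR226C, YBR184W and YCR099C, with differences from 1.36 to 1.80. YGL081W, YPR148C, YJR037W, RNA170, YDR278C, YBL100W-B and YNL285W did not pass, with differences from 0.00 to 1.40. YBL100W-B is a Ty open reading frame, whose reads are shared with other Ty copies, so its level is uncertain. YDR278C was at 168 and 7.85 in the 2 rrp6 libraries. RUF21 and YIR044C could not be fitted, because each lacked a value in 1 column. RUF21 was at 11.4 and 14.3 in ume6, 7.65 with the dead fusion, 9.68 and 11.9 with the active form, and at most 2.60 in the 9 columns with native Ume6 that had a value. YIR044C was at 16.5 and 36.9 in ume6 and at 2.78 with the dead fusion.

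The fusion was also compared within ume6 cells, with the same ume6 libraries that carried Chd1-Ume6 as in the test against wild type, so these values are not independent of it. Between ume6 with Chd1-Ume6 and the ume6 library of the workbook, 0 of 64 members were called by limma, 9 had an unadjusted p under 0.05, and the median difference was 0.06. Across all genes 0.048% were called higher, or 3 genes, and 601, or 9.63%, had an unadjusted p under 0.05. The 3 highest members were YNL134C at 3.40 ± 0.55, YKL071W at 3.25 ± 0.57 and YRO2 at 2.15 ± 0.64, and the 3 lowest YCR099C at -2.34 ± 0.34, YDR278C at -2.20 ± 1.71 and YCR100C at -1.97 ± 0.31 (log2, SE). YCR099C was at 128 FPKM in this ume6 library, 21.2 with the fusion in the workbook and 49.7 in the abundance table, and YCR100C at 113, 27.9 and 38.9. The raised motif genes had a median of -0.57, also with 0 of 35 called and 17 at an unadjusted p under 0.05. A p above the threshold does not show that the fusion left these genes as they were.

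Between the active and the dead fusion in ume6, 1 of 64 members was called higher, where 0.16% of all genes were. An unadjusted p under 0.05 was held by 10 members and by 667 of all genes, or 10.7%. That member was YKL071W, at 738 and 1800 FPKM with the active and 38.5 with the dead fusion, a difference of 4.72 ± 0.57 (SE, limma adjusted p = 0.034). It was not called without the abundance-table library of ume6 with Chd1-Ume6 (6.22), without either library of rrp6 with Chd1-Ume6 (4.72) or after quantile normalization (4.74). The dead fusion is 1 library. YNL134C, YRO2 and PRX1 followed at 3.50 ± 0.55, 3.22 ± 0.64 and 2.18 ± 0.43 and did not pass. At the other end lay RGI1 at -1.51, YJR037W at -0.86 and CYC7 at -0.72. At least 2-fold higher with the active fusion were 14 of 64 members and 345 of 6244 genes, and at least 2-fold lower were 1 and 131. By role the median difference was 2.18 for oxidant and aldehyde detoxification and 0.05 for meiosis and spore formation. CHD1 itself was at 836 and 1075 with the active fusion and at 1608 with the dead form. The part of the fusion's level in these differences was not tested.

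In rrp6 cells, which keep native Ume6 and whose libraries without the fusion also served above, most members had somewhat higher values with the fusion, and 1 of 64 passed the test, where 0.0641% of all genes were called higher. Without the fusion YDR015C was at 2.74 and 4.43 FPKM, and with it at 21.1 and 22.1, a difference of 2.33 ± 0.25 (SE, limma adjusted p = 0.037). All of its values with the fusion lay above those without. Its call was lost with pseudocount 5, at 1.64, after quantile normalization, at 2.40, with the replicate block, at the same 2.33, and in 7 of the fits that each left out 1 library, where it ran from 2.29 to 2.60. Over the members the median was 0.75, with 53 of 64 above 0 and 31 at an unadjusted p under 0.05. Over all genes the median was 0.03, with 53.5% above 0 and 12.5% at such a p. SRX1 and YGL081W followed at 1.91 ± 0.39 and 1.81 ± 0.34, and the lowest were YRO2 at -2.23 ± 0.49, YDR278C at -1.69 ± 1.29 and TDA6 at -1.44 ± 0.78. YRO2 was at 40.6 and 85.1 with the fusion and at 181 and 435 without it, and the groups did not overlap. Library 2 with the fusion was high for several members, with PIR3 at 183 and 642, GPH1 at 48.5 and 283, and RGI1 at 6.30 and 303 in libraries 1 and 2.

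Loss of Rpd3, the deacetylase that Ume6 brings to its targets, gave a mixed picture among the members. The isw2 rpd3 double deletion was set against isw2, 1 library each, and rpd3 alone was set against the same isw2 library, so both comparisons share it. The rpd3 strain keeps Isw2, so it differs from isw2 in both genes, and loss of Rpd3 and presence of Isw2 cannot be told apart in that comparison. In the double deletion 29 of 64 members were at least 2-fold higher and 7 at least 2-fold lower, against 353 and 377 of 6244 genes. Past the test, 3 members were higher, where 0.496% of all genes were, and 1 was lower, where 0.673% were. In all, 32 members had an unadjusted p under 0.05, as did 13.5% of all genes. The median over the members was 0.78, and over the 35 raised motif genes, of which 13 were called higher, it was 1.82. In both rpd3 and the double deletion, 18 members were at least 2-fold above isw2 and 4 at least 2-fold below, against 170 and 174 of 6244 genes.

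The 3 members called higher were YDR015C, YLR445W and SPO11. YDR015C was at 0.896 FPKM in isw2, 18.1 in rpd3 and 59.1 in the double deletion, a difference of 4.99 ± 0.36 (SE, limma adjusted p = 0.0039). YLR445W was at 2.08, 14.1 and 22.4 in the same order, and SPO11 at 3.34, 7.66 and 14.3. Their differences were 2.93 ± 0.38 and 1.82 ± 0.31 (SE, limma adjusted p = 0.027 and 0.047). YJR037W had the third highest difference, 2.35 ± 0.59, and did not pass (SE, limma adjusted p = 0.14). MPC54 was the member called lower, at 7.20 in isw2, 0.535 in rpd3 and 0.564 in the double deletion, a difference of -2.39 ± 0.33 (SE, limma adjusted p = 0.028). Both strains without Rpd3 thus lay above isw2 for the first 3 genes and below it for MPC54, whose level in ume6 was 15.2 and 11.3. The number of called members was 1 without either library of rrp6 with Chd1-Ume6 and 2 without any 1 of the 4 libraries of the ume6 or wild type strain with Chd1-Ume6. Only YDR015C was called in every fit that left out a library. SPO11 was not called in 8 of these fits, MPC54 in 6 and YLR445W in 2.

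By role, the meiotic members had a median of 1.20 in the double deletion against isw2, the oxidant and aldehyde members 1.32, the other described members 1.10 and the fat, carbon and mitochondrial members 0.99. The stress, storage, membrane and wall members had a median of -0.36, with 6 of 14 above 0, and in rpd3 alone -0.41, with 4 of 14 above 0. Over all genes 55.6% were above 0 in the double deletion and 44.5% in rpd3, with medians of 0.07 and -0.06. Of this role 0 members were called in either comparison. The lowest members after MPC54 were YRO2 at -2.11 ± 0.69, RGI1 at -1.91 ± 2.21 and GAC1 at -1.78 ± 1.11, none past the test. YRO2 was at 35.6 FPKM in isw2, 31.2 in rpd3 and 7.5 in the double deletion. PIR3 was at 207, 44.7 and 101 in the same order and BAG7 at 22.3, 12.9 and 9.33. All 3 were among those called higher in ume6 with Chd1-Ume6 against wild type with Chd1-Ume6. The plain ume6 library of the workbook differed from wild type with Chd1-Ume6 by 1.82 for YRO2, 5.35 for PIR3 and 3.06 for BAG7. From rrp6 it differed by -0.18, 3.94 and 2.95 in that order. All 3 had lower values in rpd3 and the double deletion than in isw2. This order rests on the isw2 column. In wild type with Chd1-Ume6, which keeps Rpd3, PIR3 was at 22.4 and 37.2, below both strains without Rpd3, and BAG7 was at 9.88 and 17.9, with the lower value below rpd3. In rpd3 alone the ends were YDR015C at 3.33, YLR445W at 2.29 and SRX1 at 2.24 above, and MPC54 at -2.42, PIR3 at -2.19 and RGI1 at -2.15 below. The 64 members share libraries, genes of neighbouring loci and a normalization, so their correlation is given as a description. Differences between the ume6 and wild type strains with Chd1-Ume6 were set beside those between the double deletion and isw2. Across the members these had a Pearson r of -0.14.

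**Figure D5:**
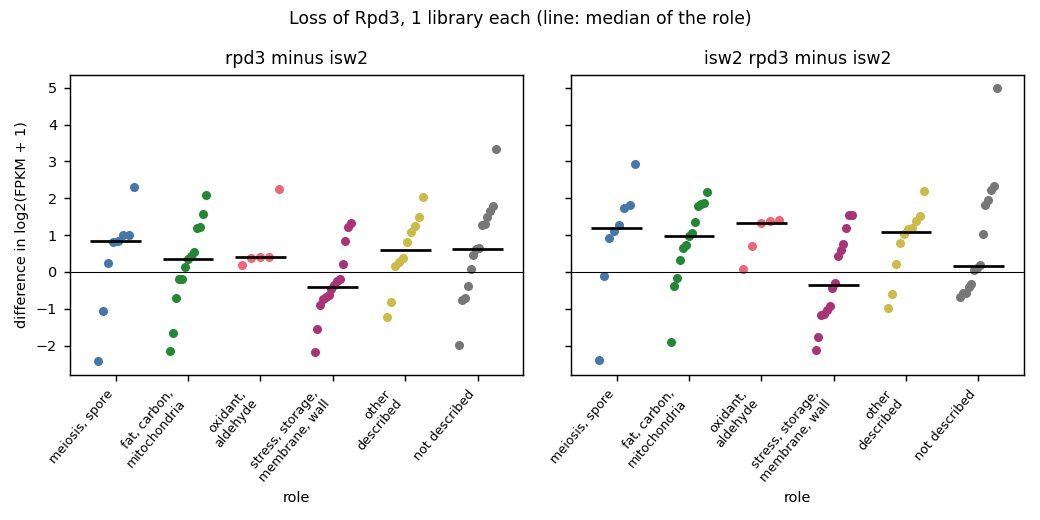
Difference in log2(FPKM + 1) from isw2 of rpd3 (left) and of the isw2 rpd3 double deletion (right), 1 point for each of 64 members by role, with a line at the median of each role. The meiotic members have a median of 1.20 in the double deletion and the stress, storage, membrane and wall members -0.36, where all genes have 0.07.

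Wider lists of the same pathways, made from textbook knowledge, were counted in the same fit. Each count gives genes called higher and lower in ume6 against wild type, both with the fusion, and then in the double deletion against isw2. Of all genes, 6.18% and 1.01% were called in the first and 0.496% and 0.673% in the second. Of 37 early meiotic genes, 20 and 0 were called in the first and 11 and 1 in the second, and 3 of them were members, SPO11, MSH4 and YLR445W. Of 43 middle and late sporulation genes, 8 and 1 were called, then 0 and 2, and MPC54 and SMA1 were members. Of 43 general stress genes, 5 and 0 were called, then 1 and 0, with GPH1, GAC1, ALD2 and PRX1 as members. Of 44 glucose-repressed and alternative carbon genes, 10 and 0 were called, then 1 and 0, with FOX2 and PXA1 as members. Of 31 oxidative and drug response genes, 11 and 0 were called, then 0 and 0, with SRX1 as a member. Lists without a member were 56 transport and starvation genes, with 9 and 9, then 0 and 2, and 27 mating-type and pheromone genes, with 3 and 0, then 0 and 4. In the first of these comparisons the list medians were 1.25 for early meiosis, 0.46 for later sporulation, 0.79 for stress and 0.51 for carbon. They were 0.69 for oxidative and drug response, -0.01 for transport and 0.27 for mating type, against 0.01 over all genes. The plain ume6 library of the workbook was also set against wild type with Chd1-Ume6. In the same order of lists, its medians were 1.46, 0.33, 0.38, 0.72, 0.05, 0.105 and 0.05, against -0.09 over all genes.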

How the data were processed

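RNA levels came from an abundance table of 8 columns and a workbook of 7 sheets. The authors deposited the abundance table and 6 of the sheets as log2 FPKM. The ume6 sheet is headed log2 per the file headers, but the deposited values fit a log10 scale, since read as log2 they would sum to far less FPKM than every other sheet, so it was read as log10. The authors' wild type column behaved as a mean in its digits, with 15.75% of 1003 genes whole in thousandths of an FPKM. The share was 31.41% after multiplying by 2, 49.35% by 3 and 95.31% by 6. These are not the digits of a plain mean of the 2 labelled wild type libraries, and which libraries were averaged is unknown. CASAVA, TopHat2, SAMtools, Cuffdiff and Cufflinks 2.2.1 are named in the submitters' processing notes, with no roles. The genome build, and whether counting used strand, were not given in the sources used here.

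Values were compared as log2(FPKM + 1), which understates changes of low genes. limma 3.58.1 in R 4.3.3 was fitted to 13 columns (all but wild type and ume6 of the abundance table) and 6244 genes that reached 1 FPKM in at least 2 columns, with 9 groups, a term for the table because tables were normalized separately, a trend, and Benjamini-Hochberg adjusted p under 0.05 over all genes. The script was tested on simulated data. Members, lists and roles were chosen with earlier results of these data known. Named genes were the 15 largest called members in ume6 against wild type, both with the fusion, the 3 highest and lowest in each other comparison, the 5 highest in the choosing column, those beside the thresholds, and list members; other members are named to account for all 66. Promoters and neighbours came from the RefSeq R64 annotation. Alternatives were other pseudocounts, no filter, quantile normalization, no table term, all 15 columns, each library left out, and a replicate block.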

Additional observations from a re-analysis of the deposited data

How the results depend on the processing

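No called member changed direction under any alternative run. Counts of called members moved both when a library was left out and in other fits, and fewer libraries leave fewer residual degrees of freedom. Leaving out each library in turn gave, for members and then for all genes, 1 to 46 (41 in the full fit) and 1 to 594 (449) for ume6 with Chd1-Ume6 against wild type with Chd1-Ume6, 0 to 20 (17) and 0 to 154 (127) for ume6 against the latter, and 15 to 30 (28) and 148 to 284 (280) for ume6 against rrp6. The ranges were 0 to 0 (0) and 0 to 13 (3) for ume6 with Chd1-Ume6 against ume6, 0 to 3 (1) and 0 to 27 (10) against the dead fusion, 0 to 1 (1) and 0 to 19 (4) for the fusion in rrp6, and 1 to 4 (4) and 22 to 75 (73) for the double deletion against isw2. Quantile normalization gave 27 members and 231 genes in the first comparison, 8 and 53 in the second, 0 members against the dead fusion, 0 and 1 in rrp6, and 1 and 27 for the double deletion. All 15 columns gave 752 genes in the first comparison, 45 members and 536 genes in the second, 777 genes against rrp6, 14 against ume6, 22 against the dead fusion, 2 members and 44 genes in rrp6, and 11 and 129 for the double deletion. Pseudocount 5 gave 7 genes against ume6, 16 against the dead fusion, 0 members and 1 gene in rrp6, and 2 and 43 for the double deletion, where pseudocount 0.1 gave 7 members. Without the table term, 7, 22 and 8 genes were called against ume6, against the dead fusion and in rrp6. The replicate block in rrp6 gave 0 members, with the call of YDR015C lost, and 2 genes, while same-numbered deviations correlated at -0.34. The crossed block, chosen after seeing the data, gave 4 members and 51 genes. Also chosen then, rpd3 alone in place of the double deletion gave 2 members and 29 genes, and a promoter window of 500 bases gave 14 members with the URS1 core in place of 9. The cause of these differences was not tested. Separation of the groups held for 47 members in the workbook and 60 in the abundance table after quantile normalization.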
